A study of Mus musculus with 2 samples.

Results

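ATF4 is the transcription factor that cells translate more of when the initiation factor eIF2 is phosphorylated, as happens under amino acid shortage, unfolded proteins in the endoplasmic reticulum (ER), haem shortage or viral RNA. It switches on genes for stress signalling, for amino acid uptake and for the making of asparagine, serine, glycine and cysteine, and with them the mitochondrial folate cycle that passes on 1-carbon units. ATF4 is controlled largely at translation, so its mRNA level alone does not report its activity. The 10 genes described here are Atf4 itself, 4 genes of stress signalling (Ddit3, Trib3, Chac1 and Sesn2), the asparagine synthetase gene Asns, and 4 enzymes of serine, folate and cysteine metabolism (Phgdh, Psat1, Mthfd2 and Cth). They were picked by symbol, with earlier results of these data known. They take up 11 of the 32285 gene rows, because the symbol Ddit3 stands on 2 rows.

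The cells were E14 mouse embryonic stem cells of 129/Ola background, grown on gelatin in serum with leukaemia inhibitory factor. One library, named control, came from a culture that received control siRNA, and the other, named sonKD, from a culture that received siRNA against Son, which encodes a large scaffold protein of nuclear speckles that aids splicing. Both cultures were lipofected, harvested 24 hours after transfection, frozen, thawed and sorted for cells that exclude the dye 7-AAD, then barcoded with 10x Genomics Single Cell 3' v3 chemistry. Each group was 1 library, so there is no replicate check of any difference, no p-value is given, and all intervals below are 95% intervals for counting error only.

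Cells were barcodes with 2500 or more UMIs (unique molecular identifiers, 1 per captured molecule), 1000 or more genes, and a mitochondrial share of UMIs of 10% or less. This left 4978 control cells with 40902904 UMIs and 2731 sonKD cells with 32032551 UMIs. The sonKD cells were deeper, with a median of 11612 UMIs against 7737.5. The mitochondrial limit removed 11.2% of otherwise passing control barcodes and 27.9% of sonKD barcodes, and 2 cell barcodes occurred in both libraries. Levels are in CPM, counts scaled so that the cells of a library sum to 1000000. Son stood at 169 CPM in the control library and at 106 CPM in the sonKD library, a log2 ratio of -0.67 (-0.73 to -0.61). All 10 markers of pluripotent stem cells reached 10 CPM, with summed levels of 8616 and 9345 CPM. Of these, 9 had a log2 ratio below 0, as did 74.9% of all genes that averaged 10 CPM or more. Pou5f1 stood at 1104 and 916 CPM (-0.27). Dppa5a alone was higher in sonKD, at 5027 and 6075 CPM (0.27). Markers of primitive endoderm, trophectoderm and feeder fibroblasts summed to between 3.18 and 11.6 CPM per list. Elf5, Col3a1, Postn and Lum were at 0 in both libraries. Neural markers summed to 55.5 CPM in control and 54.3 CPM in sonKD, of which Tubb3 supplied 43.9 and 42.5 CPM.

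Trib3, Chac1 and Asns hold the core of the C/EBP-ATF response element, to which ATF4 binds with a C/EBP partner, close to their annotated start. The element was searched as TGATGNAA on either strand in the 300 bases from 250 before to 50 after each RefSeq start (build GRCm38.p6). The promoter table matched 9 of the 10 symbols, Cth not among them. A match lay in the windows of Trib3, Chac1 and Asns, and in 3.97% of the 32851 promoters of all genes. The stretches around these matches are shown in the direction of transcription, with the matched 8 bases in capitals. That of Trib3 is chr2:152344028-152344057 on the minus strand, that of Chac1 is chr2:119351019-119351086 on the plus strand, and that of Asns is chr6:7693214-7693243 on the minus strand.
Trib3: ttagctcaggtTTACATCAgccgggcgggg
Chac1: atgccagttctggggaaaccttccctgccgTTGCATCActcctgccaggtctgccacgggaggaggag
Asns: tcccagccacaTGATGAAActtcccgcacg
In Asns the element reads along the gene. In Trib3 and Chac1 its reverse complement does. The matches began at positions 14, -193 and -23 from the start base (counted as 0) in Trib3, Chac1 and Asns. The windows of Atf4, Ddit3, Sesn2, Mthfd2, Psat1 and Phgdh held no match, which says only that these letters were not in them.

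The mRNA of Atf4 (ENSMUSG00000042406, GRCm38 chromosome 15, 80255184 to 80257541, plus strand) was present in both libraries and slightly lower in sonKD. It stood at 127 CPM (124 to 131) in control and 117 CPM (114 to 121) in sonKD, a log2 ratio of -0.12 (-0.18 to -0.06). The median over the 8063 genes that averaged 10 CPM or more was also -0.12, and Atf4 stood at percentile 49.8 of their ratios.

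Of the stress signalling genes, Chac1 and Sesn2 were lower in sonKD. Chac1 (ENSMUSG00000027313, chromosome 2, 119351229 to 119354381), which encodes an enzyme that degrades glutathione, stood at 17.2 CPM (15.9 to 18.5) in control and 12.8 CPM (11.6 to 14.1) in sonKD. Its intervals do not overlap, and the log2 ratio was -0.43 (-0.60 to -0.25). Sesn2 (ENSMUSG00000028893, chromosome 4, 132492032 to 132510501) encodes a leucine sensor that restrains mTORC1, and is known as a target of both ATF4 and p53. It stood at 30.6 CPM (29.0 to 32.4) and 24.0 CPM (22.3 to 25.8), a log2 ratio of -0.35 (-0.48 to -0.22). Trib3 (ENSMUSG00000032715, chromosome 2, 152337422 to 152344032) encodes a pseudokinase that dampens ATF4 and AKT. It stood at 31.5 CPM and 27.6 CPM, and its log2 ratio of -0.19 (-0.32 to -0.07) differed little from that of the median gene. Ddit3 (ENSMUSG00000025408, chromosome 10, 127290774 to 127296288) encodes CHOP, a factor tied to cell death in prolonged ER stress. It stood at 18.4 CPM (17.1 to 19.8) and 20.3 CPM (18.8 to 21.9), and its log2 ratio of 0.14 had an interval that includes 0 (-0.02 to 0.29). The other row of that symbol (ENSMUSG00000116429, chromosome 10, 127290829 to 127293753) is an entry for the upstream reading frame within Ddit3 and held 0 UMIs in both libraries. All 50-base stretches at the 3' end of that entry also occur in Ddit3, so its count of 0 sets no limit on its level.

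Asns (ENSMUSG00000029752, chromosome 6, 7675169 to 7693254), the gene for asparagine synthetase, was the only member whose interval lay above 0 with counts scaled to the library total, and the difference was small. Under TMM scaling the intervals of Ddit3, Psat1, Phgdh and Cth did so too. It stood at 374 CPM (368 to 380) in control and 398 CPM (391 to 405) in sonKD, a log2 ratio of 0.09 (0.06 to 0.12).

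Of the genes that make serine, the members Phgdh and Psat1 had nearly equal levels in the 2 libraries. Psph, the phosphoserine phosphatase gene and not a member, was lower in sonKD, with a log2 ratio of -0.318 (-0.390 to -0.246). Phgdh (ENSMUSG00000053398, chromosome 3, 98313170 to 98339990), whose product takes the first step from glycolysis to serine, stood at 212 CPM in both libraries, a ratio of 0.999 (0.968 to 1.03). Its reads are uncertain, because 42.2% of the 50-base stretches at its 3' end also occur in annotated pseudogenes. Psat1 (ENSMUSG00000024640, chromosome 19, 15904678 to 15947337), which encodes the aminotransferase of the next step, stood at 121 CPM and 125 CPM, with a log2 ratio of 0.05 (-0.01 to 0.11). Cth (ENSMUSG00000028179, chromosome 3, 157894248 to 157925077), which encodes the enzyme that releases cysteine in transsulfuration, stood at 59.8 CPM and 60.9 CPM, with a log2 ratio of 0.03 (-0.06 to 0.11). Mthfd2 (ENSMUSG00000005667, chromosome 6, 83305691 to 83325908), the mitochondrial folate enzyme known for high levels in embryonic and tumour cells, was lower in sonKD. It stood at 131 CPM (128 to 135) in control and 112 CPM (109 to 116) in sonKD, a log2 ratio of -0.22 (-0.28 to -0.16).

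**Figure D1:**
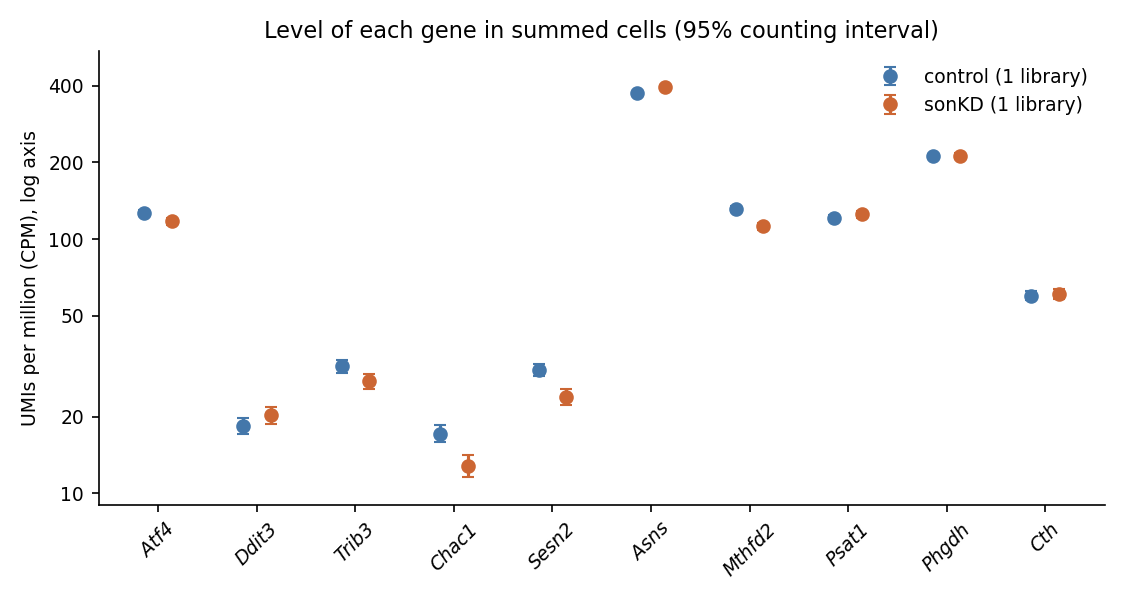
Level of each of the 10 genes in the summed cells of the control and sonKD libraries, in CPM on a log axis, with 95% counting intervals (n = 1 library per group). The intervals of Atf4, Trib3, Chac1, Sesn2 and Mthfd2 lie lower in sonKD without overlap, and that of Asns lies higher without overlap. Those of Ddit3, Phgdh, Psat1 and Cth overlap.

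Across the 10 genes, 5 had an interval of the log2 ratio below 0, 1 had it above 0 (Asns) and 4 included 0, where 51.5% of the 8063 genes had it below and 12.3% above 0. Scaled by TMM, by DESeq2 size factors or without mitochondrial and ribosomal protein genes, 3 members lay below 0 (Chac1, Sesn2 and Mthfd2), 5 above and 2 included it. A log2 ratio of 0.32 (5 to 4 on the linear scale) served as the limit for counting genes as higher or lower. No member was higher past this limit and 2 were lower (Chac1 and Sesn2), where 3.50% of the 8063 genes were higher and 10.2% lower (13.7% either way). At a fold of 1.5, 0 members passed in either direction, where 0.992% of genes were higher and 1.23% lower (2.22% either way). The members' median log2 ratio was -0.06, against -0.12 for all genes, and the 5th and 95th percentiles of all genes were -0.40 and 0.25. Chac1 alone lay outside that range. Scaling by TMM moved the median of all genes up by 0.090 and turned the split over all genes from 3.50% higher and 10.2% lower into 5.57% higher and 4.60% lower. Under TMM the members' median was 0.03 and Chac1 alone was past the limit. Antisense or same-strand neighbours overlap Ddit3 (Gm4189 and Mars), Sesn2 (Gm12981), Mthfd2 (Gm43890), Psat1 (Gm3329) and Cth (Gm43314), and the counting rules for such reads are not given in the sources used here.

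The wider pathway was read from 8 lists, of which 91 genes reached 10 CPM. Of these, 2 were higher and 11 lower past 0.32 on the log2 scale, or 12.1% lower against 10.2% of all genes. All 8 amino acid transporters tested lay below 0, as did 74.9% of all genes, with a median of -0.23 and 2 lower past the limit. These were Slc38a2, a neutral amino acid carrier, at 74.9 and 56.9 CPM (log2 ratio -0.40) and Slc7a5, the large neutral carrier that imports leucine, at 56.9 and 44.3 CPM (-0.36). Of 14 serine, glycine and folate enzymes outside the members, 13 lay below 0 (74.9% of all genes did) and 2 were lower past the limit, with a list median of -0.19. Shmt2, which passes the 1-carbon unit of serine to folate in mitochondria, stood at 70.0 and 48.8 CPM (-0.52, interval -0.61 to -0.43), and Gldc of the glycine cleavage system at 19.0 and 15.0 CPM (-0.34).

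Other amino acid enzymes had a median of -0.22, with 5 of 15 lower past 0.32 on the log2 scale and 0 higher. The proline enzyme gene Pycr1 stood at 15.6 and 9.24 CPM (-0.75). The transaminase genes Got1, Gpt2 and Got2 had log2 ratios of -0.48, -0.37 and -0.33. Lists closer to ATF4 signalling had medians nearer 0. Among 8 partner and related factors (median 0.04) 0 passed the limit, and the farthest from 0 were Jund (-0.24) and Cebpz (0.22). Among 9 other ATF4 targets (median 0.01) 0 passed, and the farthest were Herpud1 (-0.20), which acts in ER-associated degradation, and Rhbdd1 (-0.18). Of 10 eIF2alpha kinases, phosphatase subunits and eIF2alpha itself (median -0.09), the haem-regulated kinase gene Eif2ak1 was lower past the limit (-0.33), followed by Ppp1cb (-0.24). Of 12 ER chaperones (median -0.05), 1 was lower past the limit, Calr (-0.45), followed by Hspa5 (-0.25). Of 15 p53 targets (median 0.04), 2 were higher past the limit, Perp (0.47) and Rps27l (0.42). Most of these calls depend on the scaling, since under TMM 4 genes of the 8 lists were lower and 4 higher.

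**Figure D2:**
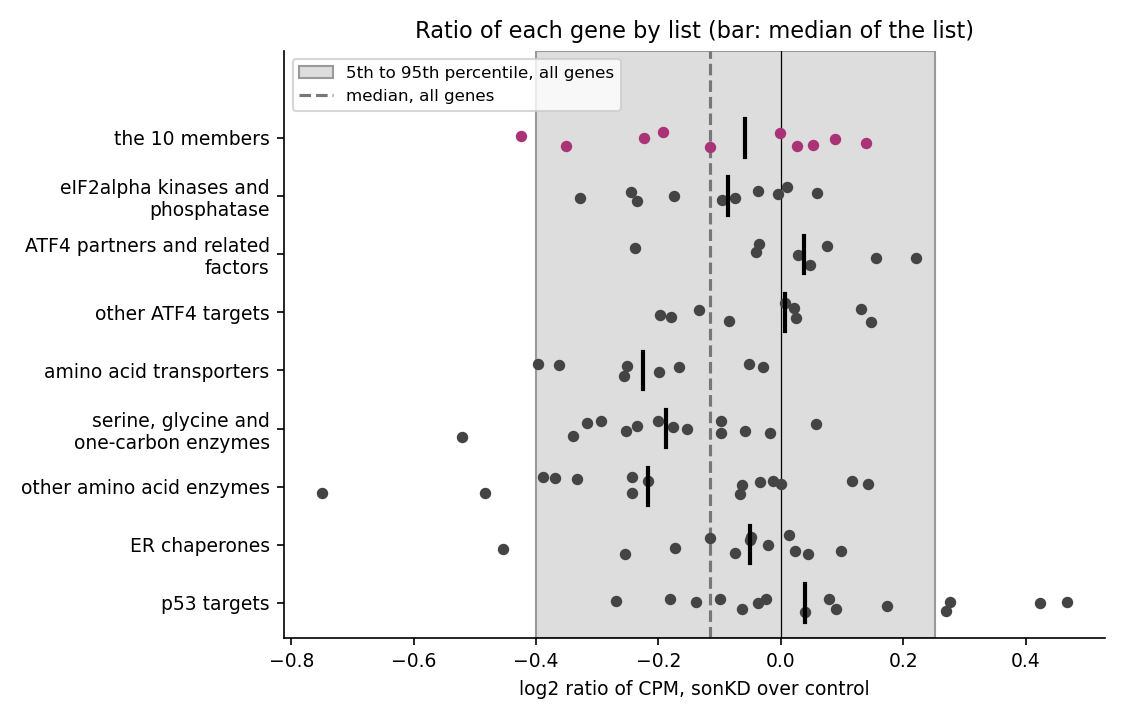
Log2 ratio of CPM, sonKD over control, for the 10 members and for the genes of 8 pathway lists that averaged 10 CPM or more. Each point is 1 gene, bars are list medians, the band spans the 5th to 95th percentile of all 8063 genes and the dashed line is their median (-0.12). Amino acid transporters, one-carbon enzymes and other amino acid enzymes have medians between -0.19 and -0.23, below the -0.06 of the members.

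Shares of cells with a UMI were compared after thinning each cell to 2500 UMIs, which all cells reached. An Asns UMI was found in 56.0% of the cells in control and in 58.7% in sonKD, which differ by 2.67 percentage points (0.34 to 4.99). Chac1 was found in 3.52% and 2.42% of cells, a difference of -1.10 points (-1.87 to -0.28). Mthfd2 was found in 24.9% and 22.7%, and Atf4 in 25.6% and 23.5% of cells. For 4 members the interval of the difference lay below 0 (Atf4, Trib3, Chac1 and Mthfd2), for Asns above 0, and for 5 it included 0. The upper bounds of Atf4, Trib3 and Mthfd2 were close to 0, at -0.05, -0.02 and -0.12 points, in a single random draw. Shares were not compared over all genes, of which 51.5% had an interval of the level ratio below 0.

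Among these 5, Phgdh was found in 38.0% and 38.2% of cells, and Psat1 in 25.2% and 24.1%. Cth was found in 13.3% and 12.7%, Sesn2 in 7.29% and 6.55%, and Ddit3 in 4.42% and 4.72%. Without thinning all 10 shares were higher in the deeper sonKD library, for example 56.1% and 63.2% for Atf4 and 10.8% and 11.3% for Chac1. No cell type that lacks these genes was at hand as a background, so near-empty droplets were read in its place.

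Barcodes with 100 to 500 UMIs (medians of 305 and 296) carried every member. Chac1 stood there at 6.81 CPM in control and 5.09 in sonKD, well under its level in cells, and Mthfd2 at 74.8 and 65.3 CPM. Atf4 stood at 126 and 111 CPM, about its level in cells, and Ddit3 at 29.7 and 28.2 CPM, above it. Phgdh stood at 186 and 189 CPM, Trib3 at 24.7 and 21.3 CPM and Cth at 44.4 and 45.9 CPM, not far below their levels in cells. Asns (246 and 279 CPM), Psat1 (63.5 and 61.0 CPM) and Sesn2 (19.2 and 13.3 CPM) lay farther below theirs in proportion. CPM is a share of UMIs. At least for Atf4, Ddit3, Phgdh, Trib3 and Cth, it does not tell UMIs of the cell from those of free RNA. In amount, such barcodes held far fewer UMIs than cells, whose medians were 7737.5 and 11612. In control, Atf4 had 2314 UMIs over 59886 such barcodes and 5198 UMIs over 4978 cells. How many UMIs free RNA adds to a cell was not tested.

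Most thinned cells held UMIs of few members. In control 10.9% and in sonKD 10.4% of cells held none of the 10 genes, 29.5% and 29.8% held exactly 2 of them, and 10 control cells and 1 sonKD cell held 7. The spread between cells was read as the variance over the mean of thinned counts (the Fano factor), which is 1 for counting noise alone. It exceeded the median of genes of like level for 8 members in control and 9 in sonKD. For Chac1 it was 1.08 and 1.11, at percentiles 93.9 and 96.4 of genes of like level, and for Mthfd2 1.12 and 1.11, at percentiles 91.1 and 90.5. Sesn2 did not vary more than such genes, with 1.02 and 0.987, at percentiles 49.9 and 18.7.

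Within each library, co-expression over thinned cells was weak for every pair. The median Pearson r of the 45 pairs of members was 0.025 in control and 0.025 in sonKD, over 4978 and 2731 cells that share a library. Over all 16632028 pairs of 5768 genes the median was 0.001, with a 95th percentile of 0.030 and 0.037. Of the 45 pairs, 21 in control and 17 in sonKD lay above that percentile, and no pair exceeded 0.092. Values this small in sparse counts are a description only, and without thinning the medians were 0.088 and 0.125.

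Of the pairs found together beyond the product of their shares in both libraries, by intervals above 1, those with Chac1 had the highest ratios. Chac1 was also found in the fewest cells (3.52% and 2.42%), and rarer genes can reach higher ratios. Atf4 and Chac1 occurred together in 72 control cells, 1.61 times the product (1.26 to 2.03), and in 29 sonKD cells, 1.87 times (1.254 to 2.69). Trib3 and Chac1 occurred together in 28 and 10 cells, 2.10 times (1.40 to 3.04) and 2.38 times (1.14 to 4.37). Chac1 and Mthfd2 occurred together in 60 and 28 cells, 1.38 and 1.87 times. In all 3 pairs the interval lay above 1 in both libraries.

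The same held for 4 pairs with ratios closer to 1. Psat1 and Phgdh, the genes of consecutive enzymes of serine synthesis, occurred together 1.13 and 1.22 times as often. The others were Atf4 with Mthfd2, Asns with Phgdh, and Mthfd2 with Psat1. Ddit3 and Chac1 shared 18 control cells, 2.33 times the product (1.38 to 3.68), but only 5 sonKD cells, 1.60 times with an interval from 0.52 to 3.74. Ddit3 and Trib3 shared 33 control cells, 1.97 times the product (1.36 to 2.77), and 11 sonKD cells, 1.34 times (0.67 to 2.39). For 0 of the 45 pairs did the interval lie below 1 in both libraries. Joint detection was not counted over all pairs of genes, so these counts have no background.

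**Figure D3:**
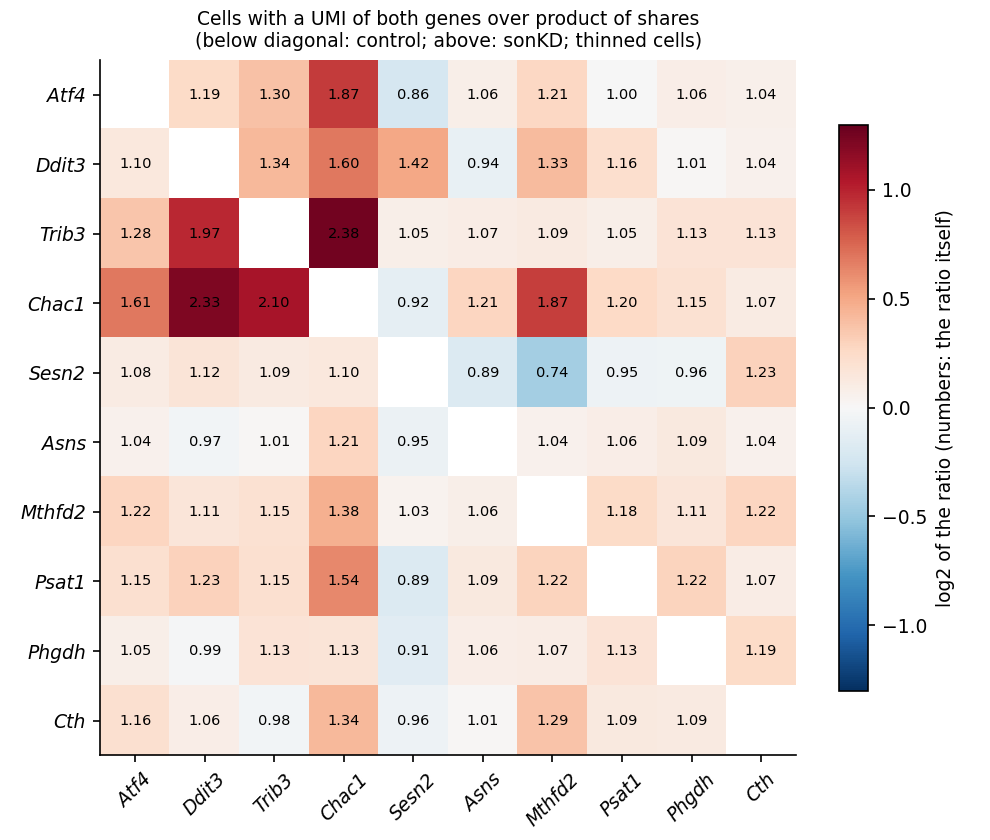
Cells with a UMI of both genes over the number given by the product of their shares, for the 45 pairs of members after thinning, with control below and sonKD above the diagonal. Numbers are the ratios and colours their log2. The highest values of both libraries, 2.33 (with Ddit3) and 2.38 (with Trib3), are those of pairs with Chac1, and the ratios of Sesn2 lie between 0.74 and 1.42.

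Sesn2 stood apart from the other members within both libraries. Of its 9 pairs, 0 exceeded the 95th percentile of its own r with all genes in either library. Atf4 exceeded its own with 6 of 9 members in each library, but not with the same 6. Psat1, with r of 0.057 in control and 0.007 in sonKD, was among them in control only. The 3 genes most like Sesn2 in both libraries were Ano3 (r of 0.061 and 0.074) and the mitochondrially encoded mt-Co1 and mt-Co3. By the same measure the genes most like Atf4 were Mthfd2 (0.079 and 0.072), the stress cofactor gene Nupr1 and Top2a. Those most like Chac1 were Atf4, the phosphoserine phosphatase gene Psph (0.075 and 0.071) and the translation repressor gene Eif4ebp1.

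Among the metabolic members, the histone variant gene H2afz was the gene most like Asns (0.141 and 0.131), Mthfd2, Psat1 and Phgdh. It was followed by Chchd10 and Eif4ebp1 for Asns, Npm1 and Nupr1 for Mthfd2, Mif and the glycyl-tRNA synthetase gene Gars for Psat1, and Ncl and Tubb5 for Phgdh. Cth was most like Npm1, Spp1 and Mthfd2. Trib3 was most like Atf4, Ttc28 and Fam193a, and Ddit3 most like Gabarap, Ankrd12 and Zbtb11. Ddit3 and Chac1 fell under 0.05 UMIs per thinned cell in at least 1 library, where r is limited most by counting.

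Cells with a UMI of one member held more of the serine group, the sum of Phgdh, Psat1, Mthfd2 and Cth without the gene itself. In control, cells with a Chac1 UMI held 706 CPM of the group against 493 CPM in cells without, a log2 ratio of 0.52 (0.35 to 0.68). In sonKD they held 661 against 482 CPM, a log2 ratio of 0.46 (0.17 to 0.73). The ratio was above 0 with intervals above 0 in both libraries for 8 of the 10 genes, and lay between 0.18 and 0.52. Of 5768 genes tested the same way, 6.26% gave more of the group and 5.91% less. Mitochondrial share differed with it: the median was 3.21% in control cells with a Chac1 UMI and 3.68% in those without, and 3.63% and 4.11% in sonKD. Its part in the result was not tested. The exceptions were Ddit3 (0.12 and 0.16) and Sesn2 (-0.09 and -0.14), whose intervals included 0.

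The summed p53 target list divided the members in another way. In cells with a Mthfd2 UMI it was lower, at 1821 against 2139 CPM in control (log2 ratio -0.23, -0.27 to -0.19) and 1890 against 2342 CPM in sonKD (-0.31, -0.37 to -0.25). Atf4, Chac1, Asns, Psat1, Phgdh and Cth gave ratios below 0 in both libraries too, with intervals below 0, so that 7 members were lower and 1 was higher, where 25.0% of the 5768 genes were lower and 9.52% higher. In cells with a Sesn2 UMI it was higher, at 2261 against 2044 CPM and 2467 against 2224 CPM, a log2 ratio of 0.15 in each library. With the full list, Ddit3 gave 0.16 and 0.04 and Trib3 0.03 and 0.14, each with 1 interval that included 0. Rps27l and Bax made up 62.2% and 64.3% of the UMIs of that list. Without them the values for Sesn2 were 0.45 and 0.54 and those for Mthfd2 -0.61 and -0.77. Ddit3 (0.39 and 0.34) and Trib3 (0.20 and 0.41) were then also higher, with intervals above 0 in both libraries. Mitochondrial share moved with these results. Among cells with at most 5% mitochondrial UMIs, 4 of the 7 genes kept intervals below 0 in both libraries, and Sesn2 gave 0.05 and -0.01 with intervals that included 0.

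**Figure D4:**
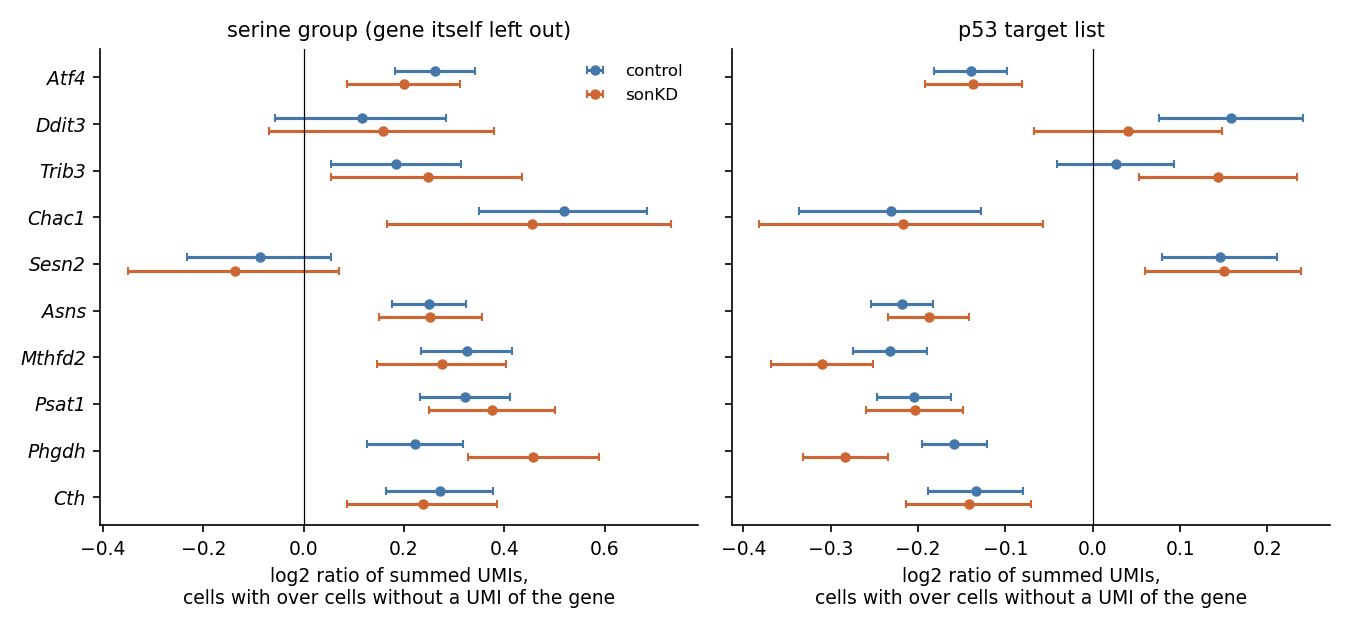
Log2 ratio of summed thinned UMIs in cells with over cells without a UMI of each gene, for the serine group (left, the gene itself left out) and the p53 target list (right), in the control and sonKD libraries, with 95% counting intervals. Sesn2 lies below 0 on the left (-0.09 and -0.14) and above 0 on the right (0.15 in both libraries).

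Cells were also ordered by their thinned UMIs of the stress group (Ddit3, Trib3, Chac1, Sesn2 and Asns), of which Asns supplied 78.9% in control and 81.9% in sonKD. In control the serine group stood at 442 CPM in cells with 0 such UMIs, 491 with 1, 562 with 2 or 3 and 655 with 4 or more. In sonKD the corresponding values were 434, 474, 543 and 628 CPM. Both libraries thus showed the same order, with 220 control and 114 sonKD cells in the highest class. Atf4 went from 113 to 169 CPM and from 95.1 to 168 CPM between the lowest and the highest class.

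In cells with 2 or more stress group UMIs over cells with 0, 3 of the 5 members outside the group (Atf4, Psat1 and Phgdh) were higher past 0.32 on the log2 scale in both libraries. Over 5561 genes, 0.504% were higher and 1.92% lower past the limit in both. Of the pathway lists, Nupr1 (0.79 and 0.89), Psph (0.48 and 0.54), Shmt2 (0.40 and 1.05) and the cationic amino acid carrier gene Slc7a3 (0.38 and 0.80) were higher in both. In this contrast 6 of 12 p53 targets were lower in both. That count was 5 with another seed, 2 of 9 at no more than 5% mitochondrial UMIs, 2 without the 5% deepest cells, and 2 of 15 with the cut lowered to 1 or more UMIs. With that cut and a group without Asns it was 0 of 15, and the list's median log2 ratio turned from -0.40 in control and -0.41 in sonKD to 0.13 and 0.38. The count of 3 members became 4, 3, 3, 0 and 1 under the same settings. Median mitochondrial shares were 3.84% at 0 UMIs and 3.36% at 4 or more in control, and 4.37% and 3.62% in sonKD. Their part in the result was not tested.

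Levels of the members moved with the mitochondrial share of the cell, in the same way in both libraries. From cells with at most 2.5% to cells with 5 to 10% mitochondrial UMIs, Chac1 went from 25.1 to 7.78 CPM in control and from 18.8 to 4.63 CPM in sonKD. Mthfd2 went from 166 to 88.3 CPM and from 135 to 67.2 CPM, and Phgdh from 264 to 142 CPM and from 292 to 152 CPM. In all, 8 members were lower past 0.32 on the log2 scale in both libraries, where 9.62% of the 8063 genes were lower and 23.7% higher. The members' median log2 ratios were -0.69 and -0.87, against 0.13 and 0.07 for all genes. Trib3, with an interval in control that included 0, was not among the 8.

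Sesn2 went the other way. It stood at 20.01 CPM in cells with at most 2.5% mitochondrial UMIs and 41.0 CPM at 5 to 10% in control, a log2 ratio of 1.03 (0.67 to 1.41). In sonKD it stood at 18.8 and 33.6 CPM, a log2 ratio of 0.84 (0.28 to 1.45). The 8 lower and 1 higher were also the counts when CPM were taken over non-mitochondrial UMIs. By depth, the cells of each library were cut into 4 equal classes. In the deepest over the shallowest class, 7 members were higher past 0.32 on the log2 scale in both libraries and 0 were lower. Of all genes, 10.0% were higher and 4.63% lower. Chac1 again had the widest range, from 6.28 to 21.4 CPM in control and from 5.27 to 15.3 CPM in sonKD. The 2 orderings overlap and were not separated. From at most 2.5% to 5 to 10% mitochondrial UMIs, median depth went from 8138.5 to 5919 UMIs in control and from 12355 to 8990.5 in sonKD. From the shallowest to the deepest class, the median mitochondrial share went from 4.58% to 3.41% and from 5.28% to 3.73%.

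**Figure D5:**
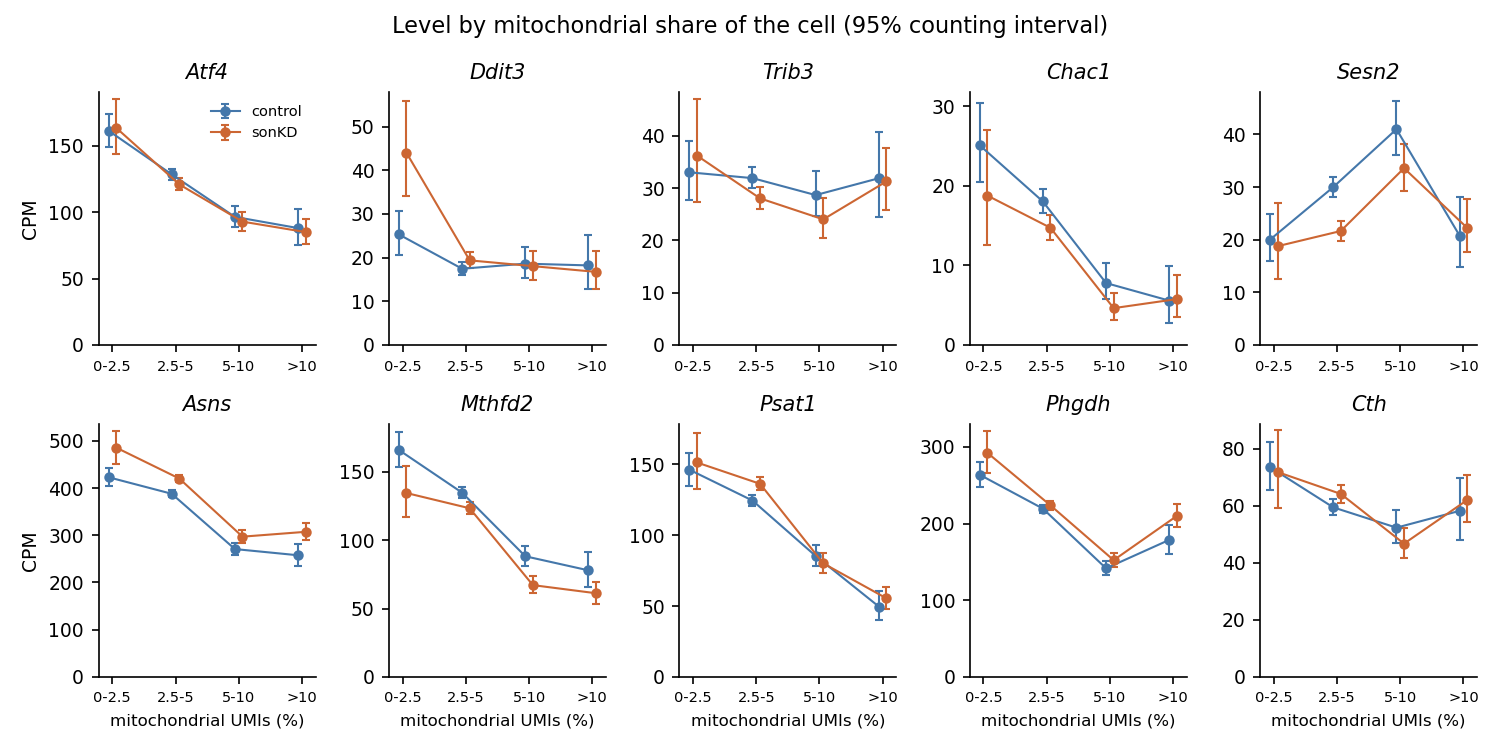
Level in CPM of each gene by the mitochondrial share of the barcode (at most 2.5%, 2.5 to 5%, 5 to 10%, and the left-out barcodes above 10%) in the control and sonKD libraries, with 95% counting intervals. Chac1 goes from 25.1 to 7.78 CPM in control over the first 3 classes, and Sesn2 goes from 20.01 to 41.0 CPM.

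Within the 3 classes of mitochondrial share up to 10%, 4 of the 10 members had in each class the side they had over all cells. These were Chac1, Sesn2, Asns and Mthfd2, and the others did not. The same was not counted over all genes, of which 74.9% lay below 0 over all cells. Phgdh, with a log2 ratio of -0.001 over all cells, gave 0.15, 0.03 and 0.10 in the classes, with intervals that included 0. The log2 ratio of Chac1 was -0.42 (-1.07 to 0.19), -0.29 and -0.75 in the 3 classes from low to high, and that of Mthfd2 -0.30, -0.13 and -0.39. Asns was higher in sonKD in each, at 0.20, 0.12 and 0.13, with intervals above 0. By depth it was not: from the shallowest to the deepest of the 4 classes its ratio was -0.04 (-0.14 to 0.06), 0.10, 0.04 (-0.03 to 0.11) and 0.15. Because these classes were cut within each library, they do not match depth between the libraries. The median was 5281 UMIs in control and 7332 in sonKD in the shallowest class, and 11133 and 15860 in the deepest. By mitochondrial share, Sesn2 gave -0.09 (-0.76 to 0.53), -0.47 and -0.29, and 0.10 (-0.46 to 0.68) in the left-out barcodes above 10%.

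Ddit3, singled out after its values were seen, differed between the libraries in the lowest class. It stood at 25.3 CPM (20.7 to 30.6) in 480 control cells and 44.0 CPM in 129 sonKD cells, a log2 ratio of 0.80 (0.336 to 1.251). The 68 sonKD UMIs came from 41 cells, and without the cell with the most (5 UMIs) the level was 41.1 CPM. In the other 2 classes the ratios were 0.15 and -0.04, with intervals that included 0. The log2 ratio of Son was -0.31 (-0.56 to -0.07) in the lowest class and -0.72 and -0.70 in the other 2. Its relation to Ddit3 was not tested.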

How the data were processed

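Single-cell RNA was measured in 1 control and 1 sonKD library. The authors deposited raw UMI counts for every barcode, made with Cell Ranger 7.1.0 per the file headers, and the submitters' processing notes name the build mm10. The annotation, strand and treatment of intronic reads are not given in the sources used here. Values were whole numbers, with 71046373 UMIs in the control file and 60352438 in the sonKD file.

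Counts were summed over cells of a library and scaled to CPM, without a pseudocount. Intervals at 95% are exact Poisson for levels, Clopper-Pearson for shares and conditional binomial for ratios. The interval of a difference of shares combines both bounds. They cover counting error only, and no test was made, since each group is 1 sample. Cells were thinned to 2500 UMIs by seeded random draws for shares and co-expression (Pearson r of log counts, genes with at least 0.05 UMIs per thinned cell in both libraries). Doublets were kept, with no caller run. Ratios over all genes used a mean of at least 10 CPM. Scripts ran in Python 3.11.15 with numpy 2.4.6 and scipy 1.17.1, and scaling factors came from edgeR 4.0.16 and DESeq2 1.42.0 in R 4.3.3. The scripts were tested on simulated data. Positions are from GENCODE M21 on GRCm38, promoters from RefSeq.

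The members and lists were chosen with earlier results of these data known. Named genes are all members, Son, of each list the 2 farthest from 0 and all past a log2 ratio of 0.32, and for each member the 3 most similar genes. One list gene that this rule names is not reported here. The contrast of 2 or more against 0 stress group UMIs, with a minimum of 100 UMIs per gene, was set after values at 4 or more had been seen, and genes named from it fall outside that rule. Alternatives covered scaling, cell limits, filters, thinning and dropping the 5% deepest cells. Those on non-mitochondrial CPM, the stress group, the p53 list by member and interval calls by scaling were chosen after seeing the data.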

Additional observations from a re-analysis of the deposited data

Results flagged for a closer look

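Barcodes that were not counted as cells also carried the members. In the barcodes above 10% mitochondrial UMIs (625 in control and 1056 in sonKD), Asns was higher in sonKD, with a log2 ratio of 0.25 (0.10 to 0.41). Phgdh was higher there too, with a log2 ratio of 0.23 (0.05 to 0.42). It stood at 212 CPM in the cells of both libraries. In their classes of mitochondrial share its log2 ratios were 0.15, 0.03 and 0.10, with intervals that included 0. In barcodes with 100 to 500 UMIs, Asns was again higher in sonKD, at 279 against 246 CPM and a log2 ratio of 0.18 (0.12 to 0.24). Other members were lower there: Mthfd2 at -0.35 (-0.65 to -0.04) above 10% mitochondrial UMIs, and in the droplets Sesn2 (-0.53), Chac1 (-0.42), Trib3 (-0.22), Mthfd2 (-0.20) and Atf4 (-0.18), with intervals below 0. These values come from data outside the main measurement and have no replicate. With 1 sample per group, no search for a sample far from the others was possible.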

How the results depend on the processing

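The count of members lower past a log2 ratio of 0.32 was 2, and 1 under TMM, under DESeq2 size factors and under a total without mitochondrial and ribosomal protein genes. It was 0 among genes of at least 50 CPM and 0 at 1.5-fold, since Chac1 and Sesn2 lie under those limits. The members' median log2 ratio was -0.06, 0.031 under TMM and 0.026 under DESeq2. Over the 8 pathway lists, the 11 lower genes became 4 under TMM, 4 under DESeq2, 5 without mitochondrial and ribosomal protein genes, 7 at 50 CPM and 1 at 1.5-fold. The 2 higher genes became 4 under each of these 3 scalings, 6 without a filter, 1 at 50 CPM and 0 at 1.5-fold. The split over all genes was 5.43% higher and 4.76% lower under DESeq2, and 5.13% and 5.31% without mitochondrial and ribosomal protein genes. Unthinned, differences in shares turned to 7.13 points for Atf4, 4.44 for Trib3, 0.43 for Chac1 and 4.72 for Mthfd2, and unthinned sonKD cells are deeper. The median r of the 45 pairs was 0.088 in control and 0.125 in sonKD unthinned, and 0.065 in sonKD at 5000 UMIs. For the contrast of stress group UMIs, the 3 members became 0 with the cut lowered to 1 UMI, and 1 with that cut and a group without Asns. The 6 p53 targets became 2 at 5% mitochondrial UMIs, 2 without the deepest cells, 2 with the lower cut and 0 with that cut and no Asns. The 5 members with an interval below 0 became 3, and the 1 above 0 became 5, under each of the 3 scalings. The 7 members with less of the p53 list became 4 at 5% mitochondrial UMIs. The 1 member with more (Sesn2) became 3 with another seed, 0 at 5% mitochondrial UMIs, 3 without the deepest cells and 3 without Rps27l and Bax. In each case the 3 were Ddit3, Trib3 and Sesn2. The cause of these shifts was not tested. Of 90 log2 ratios of members under alternatives, 73 moved by less than their counting interval and 17 by more. No paired analysis was possible because each group holds 1 sample. Counting limits Ddit3 and Chac1 most, and only further libraries could show the spread between cultures.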
